A study of Rattus norvegicus with 8 samples.

Results

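Copper handling was described in the livers of male Goto-Kakizaki rats through 10 genes of copper uptake, chaperoning and export: Slc31a1, Slc31a2, Atp7a, Atp7b, Atox1, Ccs, Cox17, Commd1, Cp and Sod1. Goto-Kakizaki rats are an inbred, lean model of type 2 diabetes, and all animals of both groups shared this strain, sex and age of 18 weeks. The 4 control rats ate AIN-93G, a purified rodent diet, for 12 weeks. The 4 rats of the other group ate AIN-93G with an extract of persimmon peel for the same 12 weeks, at a dose not given in the sources used here. Liver RNA of each rat was measured on 1 Affymetrix array, and the question was how the extract changed hepatic gene expression. Members were all probe sets whose platform annotation gave exactly 1 of the 10 symbols, control sets of the manufacturer aside. There were 19 such sets among 31042, and all 10 genes had at least 1, out of 14217 named genes. The pathway was chosen by measured values: Slc31a1 had sets among the lowest p-values of the diet comparison, and the list was drawn up around it with those results known. Differences between the diets are therefore given as a description of these livers, and the adjusted p-values of the fit over the whole array are no independent support for the list.

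Copper is an essential cofactor that is toxic when free, so cells pass it from protein to protein. Slc31a1 (CTR1) is the high-affinity importer of the plasma membrane, and small chaperones carry the metal on to the secretory pathway, to superoxide dismutase and to mitochondria. The liver is the central organ of copper balance: hepatocytes load copper into ceruloplasmin for the blood and send the surplus into bile through the ATPase Atp7b, whose loss causes Wilson disease.

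The upstream sequence of 3 members is shown: the importer Slc31a1, the 1 member with called sets, its relative and near neighbour Slc31a2 for comparison, and Cp, the main secreted copper protein, the other member with a tested set that lay apart between the diets. Each run holds the 250 bases before the annotated start, 5′ to 3′ on the gene's strand, from RefSeq on build GRCr8. Capitals mark a GC box (GGGCGG) in Slc31a1, a core of the metal response element (TGCACNC or TGCGCNC) in Slc31a2 and a TATA box (TATAAA, found on both strands in overlap) in Cp.
Slc31a1, chr5:80830590-80830839, plus strand: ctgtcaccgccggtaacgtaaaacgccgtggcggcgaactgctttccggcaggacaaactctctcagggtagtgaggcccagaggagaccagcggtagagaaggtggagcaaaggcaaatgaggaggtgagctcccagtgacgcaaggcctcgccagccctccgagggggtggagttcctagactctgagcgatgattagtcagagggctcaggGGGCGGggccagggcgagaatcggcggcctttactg
Slc31a2, chr5:80753368-80753617, plus strand: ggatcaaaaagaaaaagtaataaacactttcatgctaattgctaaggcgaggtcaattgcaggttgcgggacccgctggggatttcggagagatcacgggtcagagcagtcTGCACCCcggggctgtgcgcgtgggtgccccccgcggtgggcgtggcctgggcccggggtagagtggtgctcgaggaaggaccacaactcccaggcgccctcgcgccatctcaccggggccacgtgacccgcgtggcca
Cp, chr2:104368420-104368669, plus strand: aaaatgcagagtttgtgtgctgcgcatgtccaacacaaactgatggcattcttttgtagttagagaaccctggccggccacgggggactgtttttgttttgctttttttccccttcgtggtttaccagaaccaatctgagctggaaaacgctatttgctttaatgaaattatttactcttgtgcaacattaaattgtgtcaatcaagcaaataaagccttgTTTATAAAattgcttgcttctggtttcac

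Over both strands of the 250-base windows, the GC box was in 4 of the 10 members (Slc31a1, Atox1, Ccs and Sod1) and in 30.5% of 33469 windows. Sp1, a factor that binds GC boxes, is known to act on the human SLC31A1 promoter. The single GC box of Slc31a1 began 36 bases before the start. The metal response element core, through which the zinc-sensing factor Mtf1 drives metallothionein genes, was in 5 members (Slc31a2, Atp7b, Ccs, Cox17 and Commd1) and in 20.6% of windows. Slc31a1 had 0 matches to it. The TATA box was in 3 members (Atp7a, Cp and Sod1) and in 12.9% of windows, and that of Cp began 27 bases before the start on the gene's strand. The CCAAT box (CCAAT) was in the same 3 members and in 34.0% of windows. A match is only a run of letters, and binding was not measured.

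Median signals per array ranged from 33.2 to 39.2 units, and pairs of arrays correlated with r of 0.967 to 0.986. Signals are MAS5 values as deposited. Probe sets differ in how brightly they report a transcript, so levels are compared between livers within a set, and a gap between sets or a sum over sets is likewise read only between livers. Of 4 control ratios along a transcript, those of beta-actin differed with the diet and those of Gapdh did not or overlapped. For beta-actin, the middle set minus the 3' set on the log2 scale was -0.76 ± 0.02 (SD, n = 4) in control livers and -1.06 ± 0.11 (SD, n = 4) in persimmon peel livers, without overlap. The 5' set minus the 3' set of beta-actin was -1.68 ± 0.12 and -1.97 ± 0.22 (SD, n = 4 each), apart by a narrow margin. For Gapdh the middle set minus the 3' set was -0.58 ± 0.03 and -0.59 ± 0.05 (SD, n = 4 each), and the 5' set minus the 3' set was -0.29 ± 0.10 and -0.43 ± 0.08 (SD, n = 4 each), both with overlap. A fit with the middle minus 3' ratio of beta-actin as covariate is given below, and it can hardly tell that ratio from the diet. The part of the other ratios in the differences was not tested. Of 8 hepatocyte markers 7 were on the array. Their summed signal was 68903 to 72782 on the control and 63038 to 67779 on the persimmon peel diet, without overlap. Of their 10 tested sets 1 was called lower (Cps1), beside 4.53% of all tested sets over the array. The sums were taken on the deposited values with no further normalization. In bulk liver, fewer cells of a type, less RNA per cell and a difference in scaling between arrays cannot be told apart from them. The summed signals of macrophage, sinusoidal endothelial, stellate, bile duct, red cell and lymphocyte markers overlapped between the diets. Of those lists only the endothelial list had a called set (Fcgr2b, lower, 1 of 6 tested sets).

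**Figure D1:**
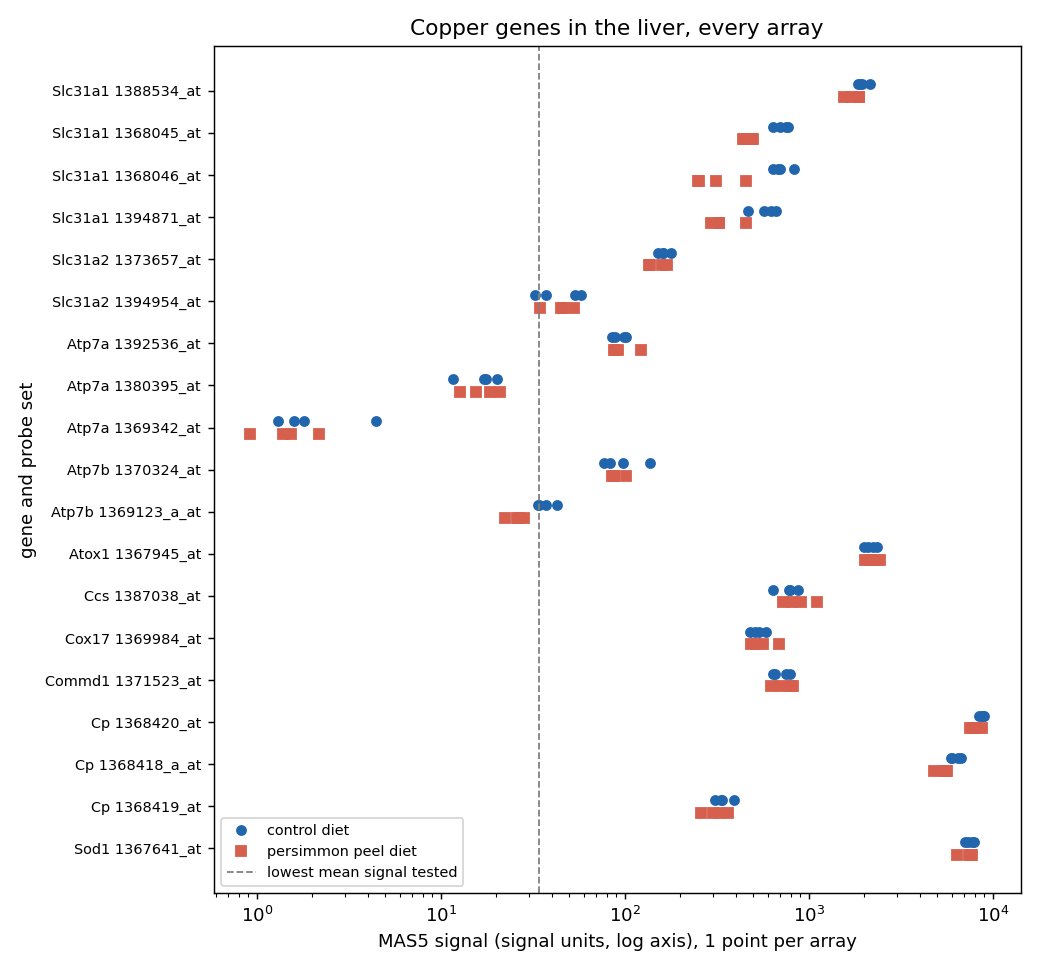
MAS5 signal of every member probe set on every array, on a log axis in signal units, with circles for the 4 control and squares for the 4 persimmon peel livers. The 3 dimmer sets of Slc31a1 lie apart between the diets. The dashed line marks a mean signal of 34.4, the lowest tested, and 3 sets of the copper ATPases have a mean below it. Control livers 1 and 3 of Atp7b 1369123_a_at lie above the line.

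Of the 19 member sets 16 passed the filter on low signal, which kept the brighter 50% of all sets, and each of the 10 genes kept at least 1. Against the control diet, 3 of the 16 were called lower on the persimmon peel diet at an adjusted p under 0.05, and all 3 belonged to Slc31a1. Over the whole array 4.53% of 15521 tested sets were called lower and 0.425% higher, which became 3.84% and 1.75% after quantile normalization. No member set was called higher by limma, and 0 were higher at an unadjusted p under 0.05, against 4 lower. The share over the array at that unadjusted threshold is not given here, so these counts have no background beside them. The log2 fold changes had a median of -0.11 over the 16 sets, -0.02 over the 12 sets of the other 9 genes, and -0.01 over all tested sets. In those 12 sets the log2 fold changes ran from -0.23 to 0.19, with 6 below 0. The signals of the diets did not overlap in 4 of the 16 member sets, all lower on the persimmon peel diet, nor in 12.9% of all tested sets in either direction.

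Slc31a1, the copper importer, had 4 sets, and the 3 dimmer of them were lower on the persimmon peel diet. Set 1368046_at had signals of 693, 636, 682 and 835 in control livers 1 to 4 and of 314, 454, 252 and 249 in persimmon peel livers 1 to 4. Every persimmon peel liver lay below every control liver, and liver 2 was the highest of its diet. The means were 712 ± 86.2 and 317 ± 95.8 (SD, n = 4 each), a log2 fold change of -1.20 (SE 0.16) or a ratio of 2.24. Set 1368045_at had signals of 774, 637, 699 and 754 on the control and of 439, 489, 495 and 448 on the persimmon peel diet. The diets lay apart again, but here the persimmon peel livers stood close together. Its log2 fold change was -0.61 (SE 0.10), although the annotation gives both sets the same source transcript. Set 1394871_at had signals of 624, 465, 569 and 664 on the control and of 293, 454, 325 and 326 on the persimmon peel diet. The diets lay apart only narrowly, since persimmon peel liver 2 came just below control liver 2. Its log2 fold change was -0.74 (SE 0.14). The adjusted p-values of these 3 sets, for which the gene was chosen, were 0.00217, 0.00355 and 0.0089 by limma over the whole array.

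The brightest set of Slc31a1 moved less. Set 1388534_at had signals of 1848, 1892, 1959 and 2148 on the control and of 1551, 1692, 1879 and 1881 on the persimmon peel diet. Persimmon peel livers 3 and 4 lay above control liver 1, so the diets overlapped. The log2 fold change was -0.17 (SE 0.08), with a 95% interval from -0.35 to 0.02 and an adjusted p of 0.297 by limma. Over the array, 13.8% of the 2981 sets that were not the brightest of their gene were called lower, and 2.31% of the 2295 brightest sets of the same genes. With testing limited to the brightest set per gene, limma called 0 of the 10 genes, against 1.30% of 12540 sets called lower, and 0 of the 10 had an unadjusted p under 0.05.

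Within a liver, the gap between a dimmer set and the brightest set of Slc31a1 differed between the diets. The mean difference in the gap follows from the log2 fold changes above. The dimmer sets were those for which the gene was chosen, so the gap is no separate support. For 1368046_at the gap was -1.47 ± 0.10 (SD, n = 4) on the log2 scale in control livers and -2.50 ± 0.49 (SD, n = 4) in persimmon peel livers, without overlap. In the persimmon peel livers it was -2.30, -1.90, -2.90 and -2.92. Liver 2 thus had the narrowest gap of its diet, and it also had the beta-actin ratio nearest to the controls, -0.92. The lowest beta-actin ratio, -1.18, belonged to persimmon peel liver 1, whose gap was the next narrowest. For 1368045_at the gap was -1.46 ± 0.14 and -1.90 ± 0.13 (SD, n = 4 each), also without overlap. For 1394871_at it was -1.77 ± 0.19 and -2.34 ± 0.30 (SD, n = 4 each), and persimmon peel liver 2 lay inside the control range. The part of the beta-actin ratio in these gaps was not tested. The positions of the sets along the transcript were not analysed here, so a change of the whole transcript and of some of its forms cannot be told apart.

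**Figure D2:**
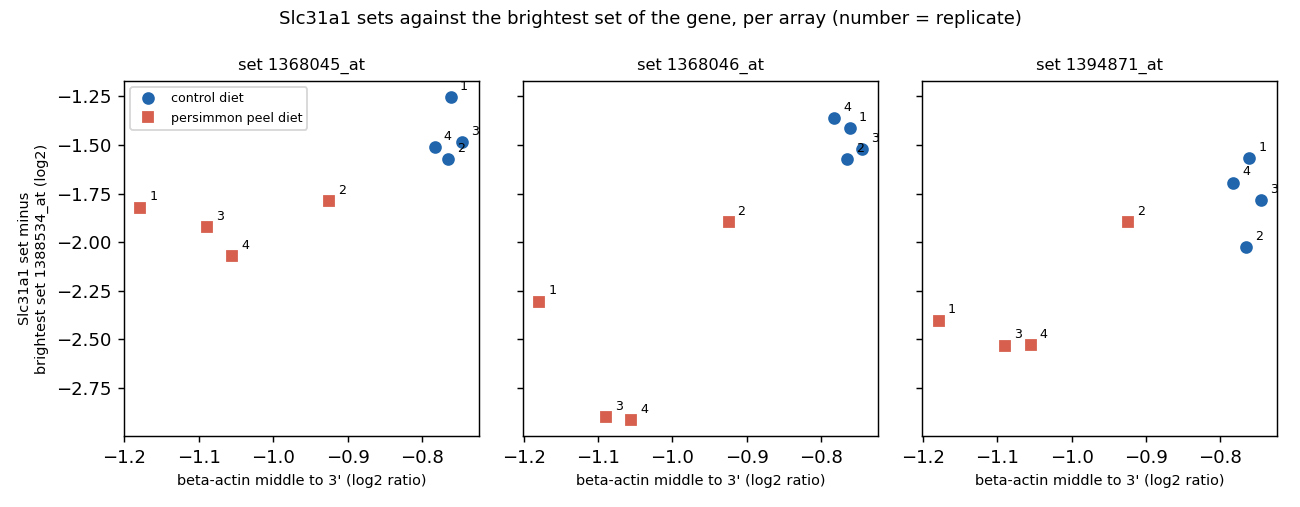
Each panel plots, for 1 dimmer set of Slc31a1, its log2 signal minus that of the brightest set 1388534_at against the log2 ratio of beta-actin (middle over 3' set), 1 numbered point per liver. The persimmon peel livers lie lower and to the left, with liver 2 nearest to the controls in beta-actin ratio, and in 1394871_at it falls inside the control range of the gap.

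Sets 1368046_at and 1368045_at were called lower in 16 of 17 other settings and 1394871_at in 15 of 17. These settings refit the same arrays for sets chosen by their low p, so the counts are no independent support. The setting that ended all 3 calls was a fit with the beta-actin ratio as covariate, chosen after seeing the data, in which 0 sets of the whole array were called by limma. Over the 16 tested member sets of all 10 genes, 1 was lower and 0 were higher there at an unadjusted p under 0.05. Which gene that set belonged to is not given here, nor is the share over the array. The log2 fold changes were then -0.55 for 1368046_at, -0.48 for 1368045_at and -0.04 for 1394871_at. The ratio lay apart between the diets, so the fit can hardly tell the ratio from the diet. Without persimmon peel livers 1 and 3, also chosen after seeing the data, 1394871_at was at -0.58 (adjusted p = 0.126 by limma) and lost its call, while 1368046_at was at -1.07 and 1368045_at at -0.61, both still called.

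**Figure D3:**
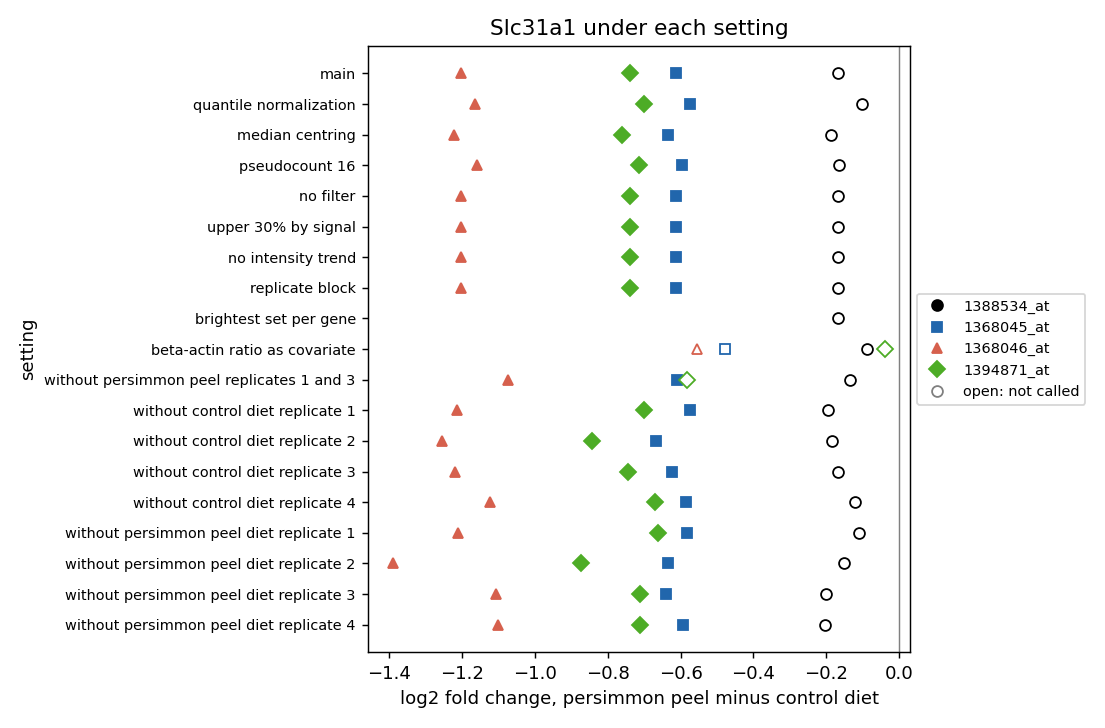
Log2 fold change of the 4 Slc31a1 sets, persimmon peel minus control diet, under each setting, filled where the set was called and open where it was not. The 3 dimmer sets stay filled except with the beta-actin ratio as covariate and, for 1394871_at, without persimmon peel livers 1 and 3.

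Slc31a2 (CTR2), a relative of the importer in endosomes and lysosomes, lies upstream of Slc31a1 on the same chromosome, with Fkbp15 between them in RefSeq. Its brighter set 1373657_at had signals of 152, 162, 162 and 177 on the control and of 135, 136, 170 and 160 on the persimmon peel diet. The diets overlapped, with a log2 fold change of -0.13 (95% interval -0.38 to 0.13). Its dimmer set 1394954_at, with a mean signal of 44.1 near the filter, was at 0.01 (95% interval -0.47 to 0.48). Fkbp15, named after its values were seen, is annotated on the opposite strand from Slc31a1, and the promoter windows of the 2 genes overlap. Its 1 tested set, 1390200_at, was at 96.9 ± 4.43 and 117 ± 5.21 (SD, n = 4 each). It lay higher on the persimmon peel diet without overlap, where 12.9% of all tested sets lay apart in either direction. Its log2 fold change of 0.27 did not pass (adjusted p = 0.21 by limma). Cdc26 and Prpf4, other neighbours also chosen after seeing the data, overlapped between the diets in their tested sets. Cdc26 was at -0.24 in 1372339_at and 0.12 in 1388727_at, and Prpf4 was at 0.10.

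The copper ATPases move the metal into the secretory pathway and out of the cell, Atp7b mainly in hepatocytes and Atp7a in most other tissues. Set 1370324_at of Atp7b had signals of 97.9, 77.5, 83.1 and 138 on the control and of 85.5, 101, 87.1 and 87.6 on the persimmon peel diet. The diets overlapped around 1 high control liver, with a log2 fold change of -0.10 (95% interval -0.46 to 0.26). A dimmer set of Atp7b, 1369123_a_at, lay below the filter and was not tested. It had signals of 42.8, 33.9, 37.4 and 34.0 on the control and of 26.6, 28.2, 22.4 and 25.9 on the persimmon peel diet. Every persimmon peel liver was below every control liver, at a log2 fold change of -0.52 (SE 0.22), and the difference was -0.34 with a pseudocount of 16. The tested set of Atp7a, 1392536_at, was at 93.7 ± 8.07 and 97.5 ± 16.9 (SD, n = 4 each), a log2 fold change of 0.05 (95% interval -0.26 to 0.35). The other 2 sets of Atp7a had mean signals of 16.5 and 1.70, too dim to compare.

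The chaperones lay close to 0 or slightly above it. Atox1 hands copper to the ATPases, and its set 1367945_at had signals of 2090, 2234, 1995 and 2348 on the control and of 2153, 2016, 2426 and 2302 on the persimmon peel diet. Both diets covered nearly the same range, with a log2 fold change of 0.04 (95% interval -0.14 to 0.21). Ccs loads superoxide dismutase, and its set 1387038_at had signals of 786, 870, 638 and 784 against 808, 723, 1103 and 904. The highest was persimmon peel liver 3 and the lowest control liver 3, and the log2 fold change of 0.19 was the highest of the members (95% interval -0.08 to 0.47, adjusted p = 0.436 by limma). Without persimmon peel liver 3 it was 0.0803. Cox17, which carries copper to the assembly of cytochrome c oxidase, was at 529 ± 45.2 and 564 ± 86.8 (SD, n = 4 each), a log2 fold change of 0.08 (95% interval -0.16 to 0.33). Persimmon peel liver 3 had the highest signal of Cox17 as well, 685. Commd1, a trafficking protein that keeps Atp7b in place and whose loss causes copper storage in dogs, was at 709 ± 72.3 and 736 ± 92.1 (SD, n = 4 each), a log2 fold change of 0.05 (95% interval -0.18 to 0.28).

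Among the copper proteins at the end of the routes, ceruloplasmin showed lower values in all its sets, none of them called. Cp encodes the ferroxidase that carries most plasma copper. Set 1368418_a_at had signals of 6010, 5925, 6491 and 6741 on the control and of 4818, 5440, 5602 and 5625 on the persimmon peel diet. The diets lay apart in this set, and the log2 fold change was -0.23 (SE 0.07, adjusted p = 0.0757 by limma). The brightest set, 1368420_at, had signals of 8738, 8396, 8894 and 8942 on the control and of 7899, 7514, 8778 and 8113 on the persimmon peel diet. Only persimmon peel liver 3 lay inside the control range, and the log2 fold change was -0.12 (95% interval -0.25 to 0.01). The dimmest set, 1368419_at, was at -0.13 (95% interval -0.39 to 0.12). After quantile normalization the 3 sets were at -0.15 for 1368418_a_at, -0.04 for 1368420_at and -0.10 for 1368419_at. Sod1, the cytosolic copper and zinc superoxide dismutase, had signals of 7044, 7720, 7373 and 7909 against 7442, 6382, 7723 and 7640. The diets overlapped at a log2 fold change of -0.04 (95% interval -0.19 to 0.11), which became 0.06 after quantile normalization.

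**Figure D4:**
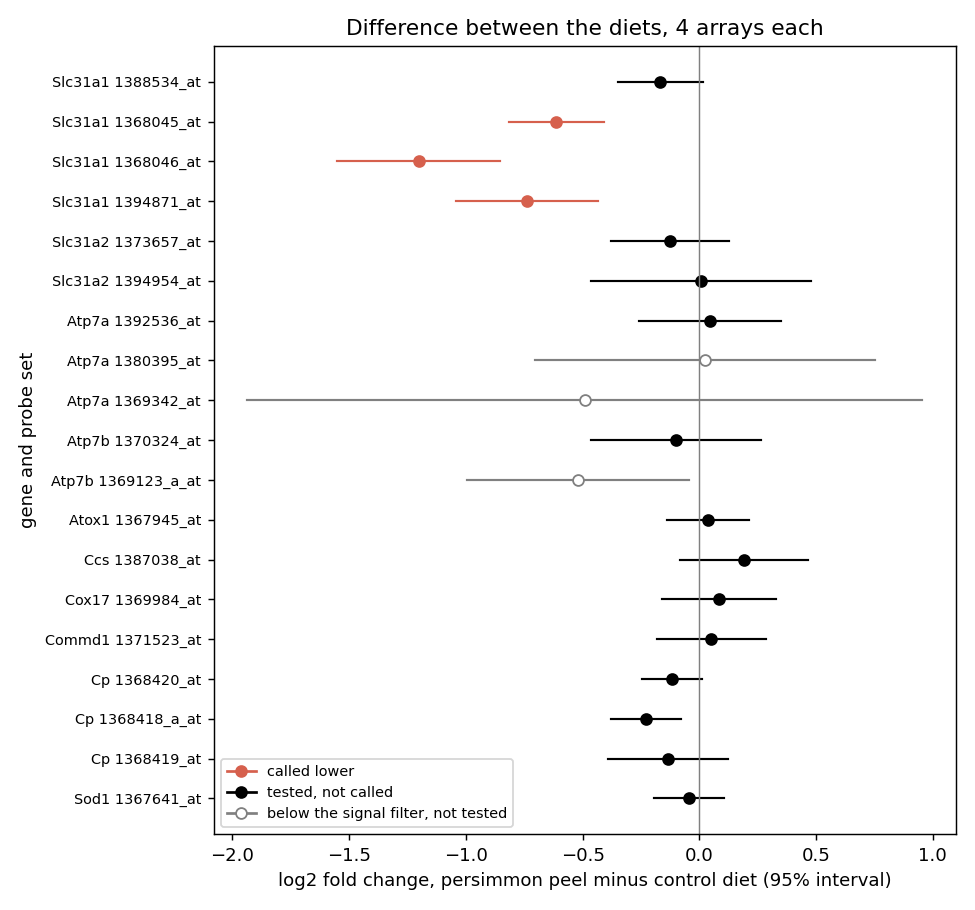
Log2 fold change, persimmon peel minus control diet, of all 19 member sets with 95% intervals from limma, coloured where the set was called lower and open where it lay below the signal filter. The intervals of 3 Slc31a1 sets and of Cp 1368418_a_at end below 0 among the tested sets, and those of the chaperones and Sod1 span 0.

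A wider group of 58 copper-related genes, in 6 lists written with earlier results known, had 50 genes on the array, of which 39 had 60 tested sets. Of the 60 sets 6 were called lower, beside 4.53% over the array. By limma 0 were called higher, with 3 higher and 11 lower at an unadjusted p under 0.05. The share over the array at that unadjusted threshold is not given here, so the 11 cannot be set against a background. The median log2 fold change of the 60 sets was -0.07. All 6 called sets lay apart between the diets, as did 12.9% of all tested sets in either direction. The 6 were picked by p, which favours sets that lie apart. Those of Xiap, Sp1 and App had persimmon peel means below 34.4, the lowest mean signal tested, and passed the filter through their control signals. In 5 of the 6 the called set was not the brightest of its gene. Over the array 13.8% of such sets were called lower, against 2.31% of the brightest sets of the same genes.

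Among proteins of metal storage and sensing, 2 of 10 sets were lower and 0 higher, beside 4.53% and 0.425% over the array. Neither of the 2 was the brightest set of its gene, and 13.8% of such sets were lower over the array. Set 1369248_a_at of Xiap, a ubiquitin ligase that targets Commd1, was at 102 ± 29.8 and 32.2 ± 8.86 (SD, n = 4 each), a log2 fold change of -1.66 (adjusted p = 0.00224 by limma). Its brighter set 1379555_at was at -0.18 (adjusted p = 0.456). Set 1369247_at of Sp1 was at 60.5 ± 4.22 and 29.4 ± 5.49 (SD, n = 4 each), a log2 fold change of -1.06 (adjusted p = 0.00599), and its brightest set 1371880_at was at 0.17 (adjusted p = 0.469). In both genes the called set was thus dim, with a persimmon peel mean below 34.4, the lowest mean signal tested. Both sets passed the filter through their control signals, so the sizes of these differences are uncertain. In Sp1 the sets disagreed in sign. A further set of Sp1, 1392180_at, lay higher on the persimmon peel diet without overlap, at 0.36 (adjusted p = 0.104), and was called higher after quantile normalization (0.41, adjusted p = 0.031). Mt2A, a metallothionein that binds copper and zinc, was at 0.45 (SE 0.25, adjusted p = 0.335) and Mtf1 in its brightest set 1377124_at at 0.23 (adjusted p = 0.302). The dimmer sets of Mtf1 were at 0.04 in 1390574_at and -0.30 in 1393372_at, so its sets disagreed in sign as well. For Mt2A and Mtf1 the diets overlapped in these sets, and without control liver 1 Mt2A was at 0.17.

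Among partners of the ATPases and copper-binding proteins, 3 of 12 sets were lower and 0 higher, beside 4.53% and 0.425% over the array. None of the 3 was the brightest set of its gene, and 13.8% of such sets were lower over the array. App, the amyloid precursor protein, which binds copper, was at -1.44 in its dim set 1380533_at (adjusted p = 0.00632 by limma) and at -0.10 in its brightest, 1371571_at. The dim set was at 70.3 ± 15.7 and 26.6 ± 9.67 (SD, n = 4 each). Its persimmon peel mean lay below 34.4, the lowest mean signal tested, and it passed the filter through its control signals. Aplp2, its relative, was at -1.37 in 1383096_at (adjusted p = 0.0066) and at 0.25 in its brightest, 1388121_at (adjusted p = 0.196). That brightest set was called higher after quantile normalization (0.30, adjusted p = 0.0422) and without persimmon peel liver 2 (0.35, adjusted p = 0.0296). A further set of Aplp2, 1380895_at, was at 0.39 (adjusted p = 0.122 by limma). Glrx, the glutaredoxin that keeps the ATPase copper sites reduced, was at 350 ± 71.9 and 231 ± 39.9 (SD, n = 4 each) in 1367705_at, a log2 fold change of -0.59 (adjusted p = 0.0383). Its brighter set 1386908_at was at -0.14. The call of Glrx ended under quantile normalization (adjusted p = 0.0571), with no signal filter (0.0842), without the intensity trend (0.0885), and without control liver 1, 3 or 4 or persimmon peel liver 1 or 3 (between 0.0677 and 0.128). Without persimmon peel livers 1 and 3 together, of the 6 called wider sets those of Xiap and Aplp2 kept their call, beside 0.490% of all tested sets called lower in that smaller fit. Sp1 1369247_at was at -1.10 there, as large as with all livers, but did not pass (adjusted p = 0.0579 by limma).

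The Commd family and its partners return membrane cargo such as the ATPases from endosomes. Of their sets 1 of 16 was lower and 0 were higher, beside 4.53% and 0.425% over the array. Commd10 had signals of 955, 935, 1003 and 984 on the control and of 719, 826, 733 and 684 on the persimmon peel diet in its brightest set. The diets lay clearly apart, and the log2 fold change was -0.39 (SE 0.09, adjusted p = 0.0178 by limma). The difference between Commd10 and Commd1 was not tested. The call of Commd10 ended without control liver 1, 3 or 4 or persimmon peel liver 1 or 4 (adjusted p between 0.0516 and 0.062 by limma), without persimmon peel livers 1 and 3 (-0.37, adjusted p = 0.117) and without the intensity trend (adjusted p = 0.0548). In mitochondrial copper delivery 0 of 8 sets were called, and the smallest p was that of Cmc1, a cytochrome c oxidase assembly factor, at -0.26 (adjusted p = 0.089). Among metal reductases and other carriers 0 of 4 sets were called, with Steap3, an endosomal metalloreductase, at 0.16 (adjusted p = 0.536). Among secreted and vesicular copper enzymes 0 of 10 were called, with Lox, which cross-links collagen, at -0.65 in 1368171_at (adjusted p = 0.133). Without persimmon peel liver 2 that set was called lower (-0.86, adjusted p = 0.0246), and without persimmon peel liver 3 it was at -0.39 (adjusted p = 0.269).

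**Figure D5:**
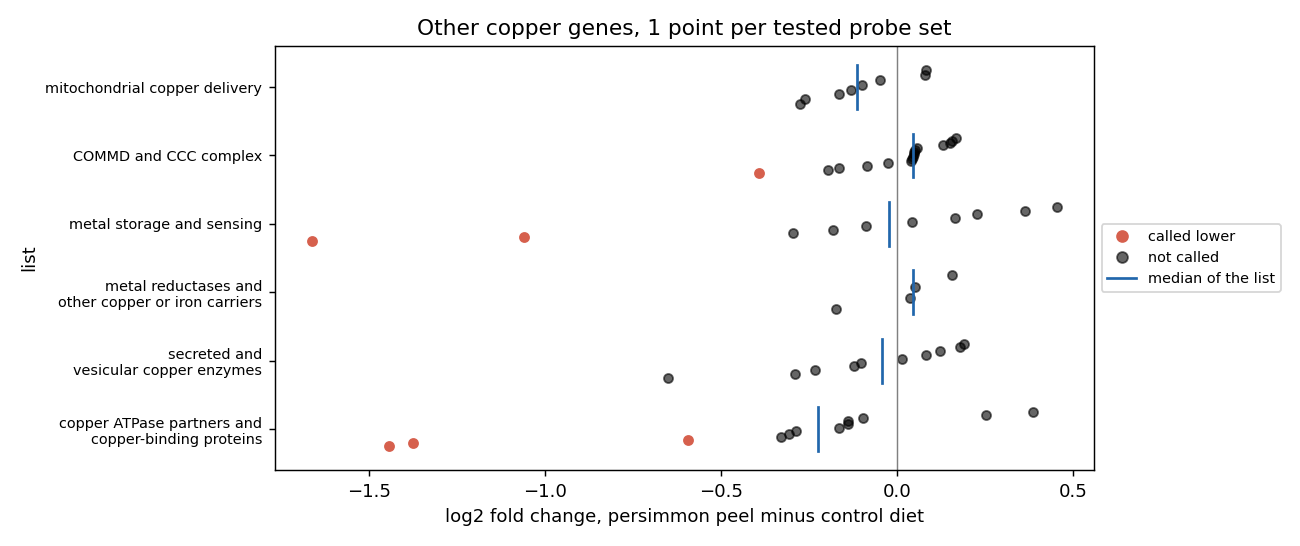
Log2 fold change, persimmon peel minus control diet, of the 60 tested sets of the wider copper lists, 1 point per set, coloured where called lower, with a line at each list's median. The 6 called sets lie in 3 of the 6 lists, and all 6 are below 0.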

How the data were processed

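Total liver RNA of 8 rats was labelled as biotinylated cRNA and hybridised to 1-colour Affymetrix arrays, per the labels' protocols. The authors deposited intensities on a linear scale, made with MAS5 per the submitters' processing notes. Its version, its scaling target and its calls of detection are not stated in those notes. All 8 columns were used, with 0 left over. Gene names came from the platform annotation, brought up to date through RefSeq (GRCr8), which gave all 10 member symbols unchanged.

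The log2 of each value was taken without a pseudocount. The 57 control sets and the dimmer 50% of the others were left out, which left 15521 sets, the dimmest at a mean signal of 34.4. The diets were compared with limma 3.58.1 in R 4.3.3 (lmFit, eBayes with an intensity trend, two-sided), with Benjamini-Hochberg adjustment over all tested sets and calls at an adjusted p under 0.05. SEs and 95% intervals are limma's moderated ones. Member sets below the filter have differences from a fit over all sets and no p. The fit was tested on simulated data. Each array was taken as 1 animal, since the series describes 4 rats for each diet; precision is limited by the number of arrays.

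The members, the wider lists and the alternatives were chosen with earlier results of these data known. Genes named are all member sets, every wider gene with a called set and the smallest p of each wider list. Fkbp15, Cdc26, Prpf4, Mt2A, Mtf1, Cps1 and Fcgr2b are named besides.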

Additional observations from a re-analysis of the deposited data

Results flagged for a closer look

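In 2 of 50 groups of 4 livers, over all member sets and the called sets of the wider lists, 1 liver stood far from the other 3. Chance does this in about 1 group in 20. Set 1392536_at of Atp7a was at 123 in persimmon peel liver 3, against 87.1 to 92.3 in the others of its diet. Set 1370324_at of Atp7b was at 101 in persimmon peel liver 2, against 85.5 to 87.6 in the others of its diet. Neither set was called with or without any single liver.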

How the results depend on the processing

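Of the 3 Slc31a1 sets called lower, all 3 passed with each liver left out, and 0 sets of the 10 genes were called higher then. The count of 3 fell to 0 with the beta-actin ratio as covariate (1 set at an unadjusted p under 0.05) and with testing limited to the brightest set per gene, which removes the 3 sets (0 at an unadjusted p under 0.05). The 6 lower sets of the wider lists became 2 of 38 in the upper 30% by signal, beside 493 of 9313 over the array. With only the brightest sets they became 1 of 39, beside 1.30% of 12540 over the array. The first of these settings removes the called sets of Xiap, Sp1, App and Aplp2, and the second removes those and that of Glrx. The 6 became 0 with the beta-actin covariate (2 at an unadjusted p under 0.05, with no share over the array given). They became 2 without persimmon peel livers 1 and 3, beside 0.490% of all tested sets. With each liver left out they numbered 4 to 7. Higher sets of the wider lists numbered 2 of 60 after quantile normalization, where 1.75% of all tested sets were called higher (271, against 66), and 0 to 1 with each liver left out.

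Small differences changed sign. With the beta-actin covariate Atp7b 1370324_at was at 0.0735, Atox1 at -0.15, Ccs at -0.15, Cox17 at -0.16, Commd1 at -0.46, Mtf1 1377124_at at -0.0131, Sp1 1371880_at at -0.17, Sp1 1392180_at at -0.04 and Aplp2 1388121_at at -0.11. Without persimmon peel livers 1 and 3 Atox1 was at -0.0056, Cox17 at -0.009, Commd1 at -0.10, Atp7a 1392536_at at -0.0597 and Slc31a2 1394954_at at -0.0377. Slc31a2 1394954_at was at -0.0148 after median centring and at -0.0002 with a pseudocount of 16, and Sod1 at 0.0601 after quantile normalization. With each liver left out the ranges were -0.14 to 0.14 for Slc31a2 1394954_at, -0.0691 to 0.0949 for Atp7a 1392536_at, -0.21 to 0.0721 for Atp7b 1370324_at, -0.0059 to 0.083 for Atox1, -0.0133 to 0.15 for Cox17, -0.0057 to 0.13 for Commd1 and -0.075 to 0.0185 for Sod1. Values that no test called also moved with 1 liver left out: 0.0803 to 0.28 for Ccs, -0.21 to -0.0474 for Cp 1368419_at, -0.19 to -0.0768 for Slc31a2 1373657_at and 0.17 to 0.67 for Mt2A. The cause was not tested. Of the 16 tested member sets, 4 lay apart between the diets, against 2 after median centring and 3 after quantile normalization. Over the array 12.9% of tested sets lay apart in the deposited values. The share after either normalization is not given here, so these counts say nothing particular about the members. Glrx lost its call in 5 and Commd10 in 5 of the 8 fits with 1 liver left out. Over the whole array, with each liver left out, lower sets numbered 294 to 942 and higher sets 12 to 269, against 703 and 66; without persimmon peel livers 1 and 3 they were 76 and 1, and after quantile normalization 596 and 271.

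The replicate numbers only name the livers: same-numbered livers of the diets correlated at -0.08 to 0.05 in their deviations from the diet means, and 1 of 4 control livers correlated best with its own number. With the replicate block 3 member sets and 6 wider sets were lower and 0 of either higher, and over the array 596 were lower and 60 higher. Signals near 34.4 are close to the dimmest tested, so the sizes of differences for dim sets are uncertain.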
